A study of Mus musculus with 6 samples.

Results

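Expression of 33 genes of cholesterol synthesis, fatty acid synthesis and desaturation, sterol transport and lipoprotein assembly was compared in a mouse skin squamous cell carcinoma line after knockdown of Ntn1 or Unc5b. The genes were chosen with earlier results of these data known and taken by their symbols from the deposited table of 49671 genes. A mean of at least 20 over the 6 libraries was required for testing, which 15330 genes of the table reached, including all 33 lipid genes. RNA was sequenced from the LKPR EPCAM+ line, whose labelled genotype is Lgr5CreER, KrasLSL-G12D, p53fl/fl and Rosa26-YFP+/+ in every library, so that the controls carry these alleles too. Cells of the control group had been transduced with TRC1, an empty lentiviral vector, and cells of the other groups with the pLKO.1-puro vector directed against Ntn1 or against Unc5b. A puromycin resistance test followed transduction, and each of the 3 groups had 2 libraries. After 6 days of culture, living single cells positive for YFP and EPCAM were sorted before RNA extraction. All groups came from 1 line, and the number of hairpins per target is not given in the sources used here. Whether both libraries of a group were grown and transduced apart is not stated there either. The tests therefore rest on how much the sequenced libraries vary, and that variation could be technical.

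Cells make cholesterol from acetyl-CoA through the mevalonate pathway, squalene and lanosterol, and they make fatty acids from the same precursor through citrate cleavage, carboxylation and chain assembly. SREBP-2 and SREBP-1, encoded by Srebf2 and Srebf1, drive transcription of these enzymes when sterols are scarce, and the Insig proteins hold the SREBPs in the endoplasmic reticulum when sterols are plentiful. The epidermis uses both products for its barrier lipids, whereas apolipoprotein B, the structural protein of very low density lipoproteins and chylomicrons, is known mainly from liver and intestine. Netrin-1, encoded by Ntn1, is a secreted ligand, and Unc5b encodes one of its dependence receptors.

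The knockdowns were seen in their own targets. Ntn1 was at 1566 and 2588 in the controls, 359 and 431 in the Ntn1 knockdown and 1319 and 771 in the Unc5b knockdown, in values that the authors scaled to 20 M per library. Unc5b was at 1527 and 1573, 2311 and 2382, and 419 and 352 in the same order. The Unc5b knockdown libraries thus held less Ntn1 than either control, a difference that did not pass the test (log2 fold change -0.99 ± 0.29 SE, limma adjusted p = 0.0638). The Ntn1 knockdown libraries held 1.51-fold more Unc5b (log2 fold change 0.60 ± 0.13, limma adjusted p = 0.0193), a call that was lost without either of these libraries. Estimated depth was 6.54 to 10.2 M reads per library. At this depth 3 reads correspond to a scaled value of 5.90 to 9.17. The lowest value of any of the 33 genes in any library was 24, that of Apob in an Ntn1 knockdown library. The Unc5b knockdown libraries stood apart from each other in the lipid genes, with library 1 the higher in 32 of 33, so results that rest on them are also given with each left out.

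Promoter sequences were examined first because the SREBPs act at sterol regulatory elements that lie near boxes for NF-Y and Sp1. RefSeq windows on GRCm38.p6, running from 250 bases before to 50 bases after the gene start, were matched for 26 of the 33 genes. No window was matched for Sqle, Stard4, Scd2, Fdft1, Scd1, Fads1 and Fdps. The description therefore leaves out Scd1, Scd2 and Stard4, which fell in the Ntn1 knockdown. A sterol regulatory element core spelled TCACNCCAC was found on either strand in 1 of 26 windows (3.85%), that of Hmgcs1, and in 1.44% of the 27025 genes with a window. The NF-Y box CCAAT was found in 21 of 26 (80.8%) against 41.1% of all genes, and the Sp1 box GGGCGG in 21 of 26 (80.8%) against 38.2%. Each motif was counted by itself, so matches may overlap. Both boxes were thus more frequent in these windows than in the table as a whole, as a description without a test. The windows of Acaca, Acat2, Apob, Elovl6 and Fads2 held no CCAAT, and those of Acaca, Apob, Elovl6, Fasn and Pmvk held no GGGCGG. The Hmgcs1 window is shown because it holds the sterol regulatory element core, those of Mvd and Ebp because these genes of cholesterol synthesis fell in the Ntn1 knockdown, and that of Apob because it differed most between the groups. Each is written 5′ to 3′ on the strand of its gene, from chr13:119690101-119690400 (plus strand, Hmgcs1), chr8:122443373-122443672 (minus strand, Mvd), chrX:8193463-8193762 (minus strand, Ebp) and chr12:7977427-7977726 (plus strand, Apob). Capitals mark TCACNCCAC and CCAAT, the latter also where it reads ATTGG from the other strand.
Hmgcs1: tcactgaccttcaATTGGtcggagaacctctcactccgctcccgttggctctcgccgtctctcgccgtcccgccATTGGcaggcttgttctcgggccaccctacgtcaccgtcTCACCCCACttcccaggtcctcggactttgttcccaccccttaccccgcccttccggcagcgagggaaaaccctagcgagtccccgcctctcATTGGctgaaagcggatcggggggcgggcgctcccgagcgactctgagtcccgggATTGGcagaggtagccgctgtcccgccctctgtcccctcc
Mvd: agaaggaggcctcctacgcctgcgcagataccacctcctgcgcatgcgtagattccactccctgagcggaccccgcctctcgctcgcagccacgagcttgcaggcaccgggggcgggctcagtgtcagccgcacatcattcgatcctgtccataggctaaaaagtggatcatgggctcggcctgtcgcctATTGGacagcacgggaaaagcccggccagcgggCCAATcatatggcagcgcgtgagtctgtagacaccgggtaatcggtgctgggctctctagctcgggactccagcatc
Ebp: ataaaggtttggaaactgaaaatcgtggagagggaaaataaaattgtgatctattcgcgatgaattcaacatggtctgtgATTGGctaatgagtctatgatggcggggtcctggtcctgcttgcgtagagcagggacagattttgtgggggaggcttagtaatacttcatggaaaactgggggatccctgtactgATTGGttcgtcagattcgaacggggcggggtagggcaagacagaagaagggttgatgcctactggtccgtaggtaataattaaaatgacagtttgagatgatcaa
Apob: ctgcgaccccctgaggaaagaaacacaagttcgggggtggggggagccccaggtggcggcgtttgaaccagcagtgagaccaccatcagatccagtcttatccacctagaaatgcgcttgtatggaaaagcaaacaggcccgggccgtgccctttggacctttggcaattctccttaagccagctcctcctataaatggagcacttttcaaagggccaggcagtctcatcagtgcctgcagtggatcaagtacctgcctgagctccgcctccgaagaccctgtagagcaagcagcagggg
The Hmgcs1 window held 4 NF-Y boxes beside its sterol regulatory element core, which starts 137 bases before the gene start. Those of Mvd and Ebp held 2 NF-Y boxes each and no such core, and the Apob window held none of the 3 motifs.

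Levels of the genes were compared per kilobase of annotated exon. In the empty vector group Scd2, a stearoyl-CoA desaturase gene, stood first at 1670 scaled units per kilobase. It was followed by Acly (779), Srebf2 (714), Fasn (689) and Srebf1 (460). Acly encodes the enzyme that cleaves citrate to acetyl-CoA, and Fasn encodes fatty acid synthase. The lowest levels were those of Tm7sf2 (36.0), a sterol reductase gene, and Acss2 (18.9), an acetyl-CoA synthetase gene. The order depends on the lengths used, which merge the exons of all annotated transcripts of a gene. Before division by length, Acss2 (mean 192.5) lay above Tm7sf2 (158.5) and Mvd (142.5) in the empty vector group. Apob was in place 27 of 33 in the empty vector group at 80.7 and last in both knockdowns, at 1.79 with Ntn1 lowered and 9.51 with Unc5b lowered. In the Ntn1 knockdown Acly stood first (1100) and Scd2 in place 4 (416). The control libraries of Scd2, at 1450 and 1890 per kilobase, lay above those of every other gene. Acly (901 and 658), Srebf2 (720 and 708) and Fasn (810 and 568) overlapped one another, so their order is within the spread of the libraries.

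**Figure D1:**
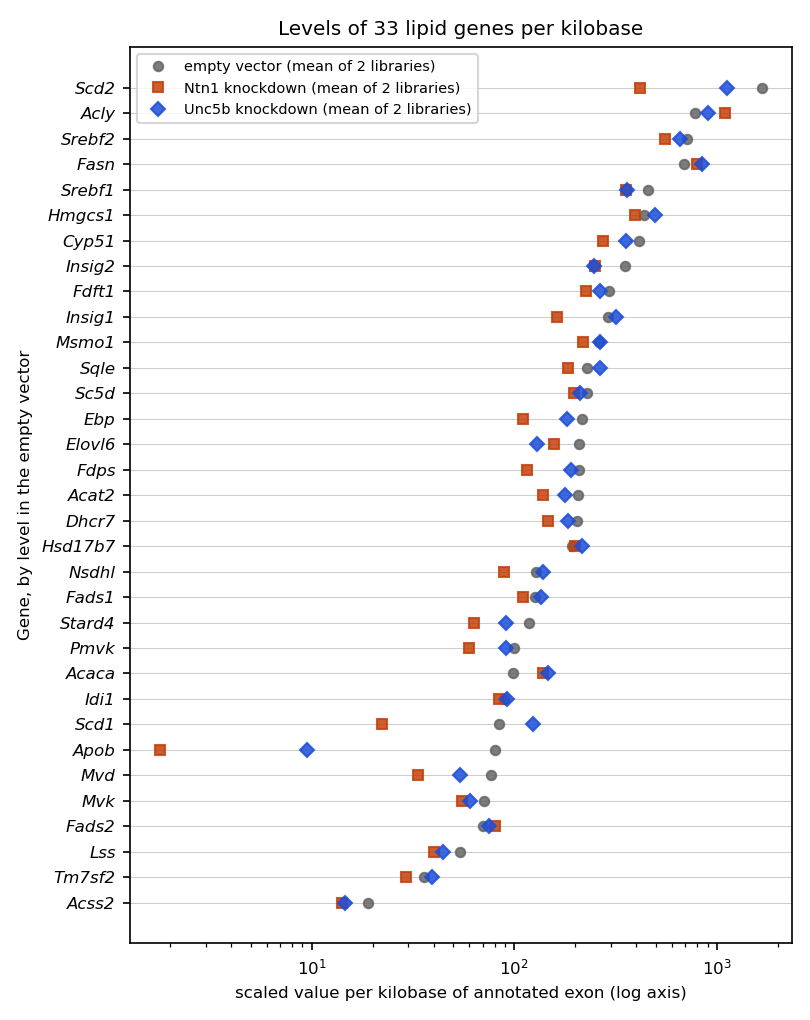
Mean of the 2 libraries of each group, in scaled units per kilobase of annotated exon on a log axis, for the 33 lipid genes ordered by their level in the empty vector group. Circles are the empty vector, squares the Ntn1 knockdown and diamonds the Unc5b knockdown; the Apob symbols run from 80.7 to 1.79, the widest separation, and the Scd2 and Scd1 squares lie left of their circles.

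In the Ntn1 knockdown most of the genes were lower than in the empty vector, and 6 of them passed the test. Apob, Scd2, Scd1, Mvd, Ebp and Stard4 fell, and 0 rose by limma (adjusted p under 0.05), whereas 8.04% of all genes tested rose. At an unadjusted limma p under 0.05 it was 13 lower and 2 higher. The share of all genes tested at that unadjusted threshold was not counted, so these 2 counts have no background here. The 6 called genes are 18.2% of the 33, against 15.1% of all genes tested that were called in either direction and 7.06% called lower. Without Apob, 5 of 32 were called, all lower (15.6%). Because the genes were chosen with earlier results of these data known, these shares are a description only. Both knockdown libraries lay below both controls for 26 genes (78.8%, against 30.2% of all genes tested) and above both for 3 (Acly, Acaca and Fads2, against 28.0% of all genes tested), and the groups overlapped for 4. The median log2 fold change was -0.41 over the 33 genes and -0.02 over all genes tested. Without Ntn1 knockdown library 1 or without library 2, 1 gene, Apob, kept its call. With no filter on low values, Mvd, Stard4, Scd1 and Scd2 lost theirs (adjusted p = 0.0657 to 0.147), and without the variance trend Stard4 (0.0906) and Scd1 (0.109) did. In bulk RNA, fewer cells of a type and less RNA per cell cannot be told apart.

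**Figure D2:**
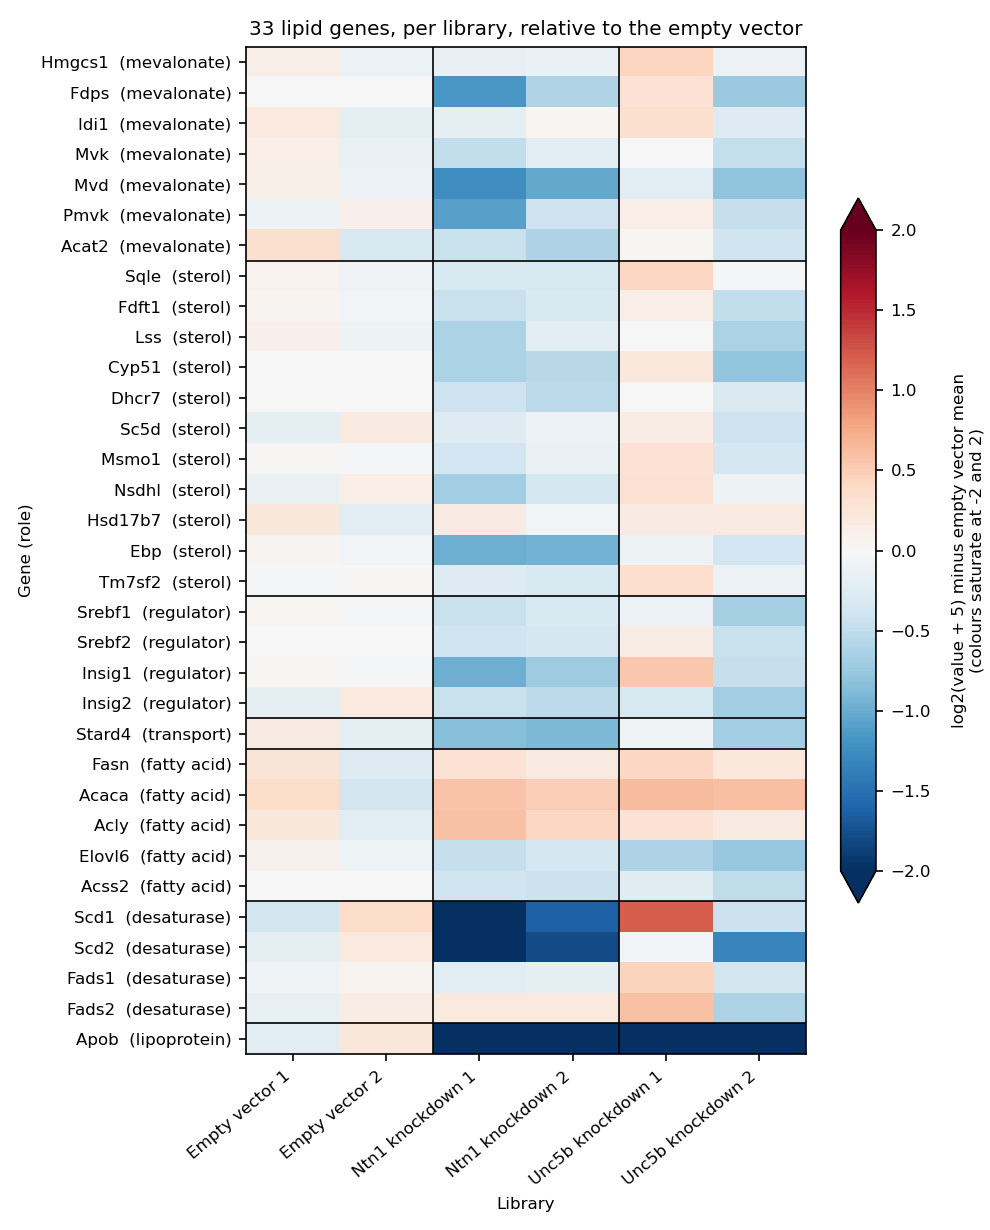
Each cell is log2(value + 5) in 1 library minus the mean of the 2 empty vector libraries, for the 33 genes (vertical axis, with their role) in the 6 libraries (horizontal axis); colours saturate at -2 and 2. Both Ntn1 knockdown columns are mostly blue except for Acly, Acaca, Fasn and Fads2, and the Unc5b columns differ from each other, with library 1 mostly red and library 2 mostly blue.

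Apob showed the greatest difference of the 33 genes. It was at 945 and 1303 in the controls, 26 and 24 in the Ntn1 knockdown and 177 and 88 in the Unc5b knockdown (chromosome 12, 7977648 to 8016835 on the plus strand of GRCm38). The 3 groups did not overlap, with the Ntn1 knockdown lowest. Its mean was 45-fold lower in the Ntn1 knockdown (log2 fold change -5.22 ± 0.33 SE, 95% confidence interval -5.97 to -4.46, limma adjusted p = 0.000126). In the Unc5b knockdown it was 8.48-fold lower (-3.10 ± 0.33, interval -3.85 to -2.34, adjusted p = 0.00106). The log2 fold change is taken on log2(value + 5) and understates the change of a gene this low. The 2 Ntn1 knockdown values correspond to about 10.9 and 7.8 reads, so counting error weighs on the size of the fold. Apob kept its call against the empty vector in all 15 alternatives run for each knockdown, with adjusted p of 8.4e-05 to 0.00901 for Ntn1 and 0.000684 to 0.0233 for Unc5b. None of its annotated exon sequence overlapped another gene, and none of its stretches of 50 bases occurred in another gene's transcripts.

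Markers of the cell types best known for Apob were low or listed at 0. Of 12 hepatocyte and enterocyte markers, 0 reached a mean of 20, and Fabp1, Fga, Fgb, Hnf4a, Serpina1a and Ttr were listed at 0 in all 6 libraries. The highest were Cdx2 (12 to 26) and Vil1 (4 to 24), both mostly above the value of 3 reads. The summed level of the list was 41 to 62 in the controls, 24 to 54 in the Ntn1 knockdown and 47 in both libraries of the Unc5b knockdown. Of the other lipoprotein assembly genes, Apobec1 and Mttp are described beside Apob. Apobec1, the cytidine deaminase that edits Apob mRNA, was at 682 and 748, 150 and 223, and 438 and 382 in the empty vector, Ntn1 and Unc5b libraries. It fell in both knockdowns (3.83-fold lower, limma adjusted p = 0.000934, and 1.74-fold lower, adjusted p = 0.0462), and the second call was lost without any 1 of the 6 libraries (adjusted p up to 0.232). Mttp, which loads lipid onto apolipoprotein B, was at 204 and 258, 331 and 336, and 338 and 273, and did not pass (log2 fold change 0.53, adjusted p = 0.114, and 0.40, adjusted p = 0.244). Mttp was named after its values were seen.

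The stearoyl-CoA desaturase genes Scd2 and Scd1, whose enzymes put the first double bond into saturated fatty acids, were lower in the Ntn1 knockdown. Scd2 (chromosome 19, 44293674 to 44306864) was at 7914 and 10305 in the controls, 1935 and 2614 in the Ntn1 knockdown and 8673 and 3604 in the Unc5b knockdown. Scd1 (chromosome 19, 44394455 to 44407879) was at 307 and 512, 93 and 125, and 925 and 292 in the same order. For both genes the Ntn1 knockdown libraries lay below all the others, and the Unc5b libraries lay far apart, with library 1 the higher. Scd2 fell 4.01-fold in the Ntn1 knockdown (log2 fold change with an SE of 0.35 and a 95% confidence interval of -2.81 to -1.19, limma adjusted p = 0.00765). Scd1 fell 3.76-fold (-1.83 ± 0.48, interval -2.93 to -0.73, adjusted p = 0.0376). Fads1 and Fads2, which encode the delta-5 and delta-6 desaturases of polyunsaturated fatty acids, did not pass in the Ntn1 knockdown (log2 fold changes -0.21 ± 0.24 and 0.20 ± 0.35). The Scd2 call was lost without Ntn1 knockdown library 1 (adjusted p = 0.0948) or 2 (0.0538), and the Scd1 call without empty vector library 2 (0.118) or Ntn1 knockdown library 1 (0.231) or 2 (0.147). Scd1 shared 4.56% and Scd2 3.97% of their 50-base stretches with other genes, mostly of the same family, so a small part of their values is uncertain. Scd2 also overlaps 61 bases of an annotated miRNA.

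Sebocytes, lipid-rich cells of the skin, also express desaturases, and their summed markers were lowest in the Ntn1 knockdown. Of 12 sebocyte markers 4 reached a mean of 20. Awat1 and Dgat2l6 were listed at 0 in every library, and Mc5r, Cidea and Elovl3 were at 0 to 4. The list summed to 4108 to 6805 in the controls, 3117 to 3146 in the Ntn1 knockdown and 4266 to 4792 in the Unc5b knockdown. Soat1, a sterol acyltransferase gene, was the most abundant, at 2134 and 2671, 2104 and 1945, and 3249 and 3356. Soat1 and Mgst1 made up most of the sum in every library. Mgst1, a glutathione transferase gene, was at 1751 and 3821 in the controls and 880 and 1027 in the Ntn1 knockdown, and at 1381 and 790 in the Unc5b knockdown, where library 2 was the lowest of the 6. Its log2 fold changes were -1.44 (limma adjusted p = 0.0312) and -1.30 (adjusted p = 0.052), and the first call was lost without empty vector library 2 or either Ntn1 knockdown library (adjusted p up to 0.207). The sums thus do not describe each marker. Of the 12 markers, 4 also stand in other lipid lists used here (Elovl3, Pparg, Scd3 and Soat1). The part of these markers in the desaturase values was not tested. Of 7 adipocyte markers 0 reached a mean of 20, with sums of 5 to 8, 37 to 76 and 4 to 8, and the higher sums in the Ntn1 knockdown came mostly from Fabp4 (67 and 37).

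**Figure D3:**
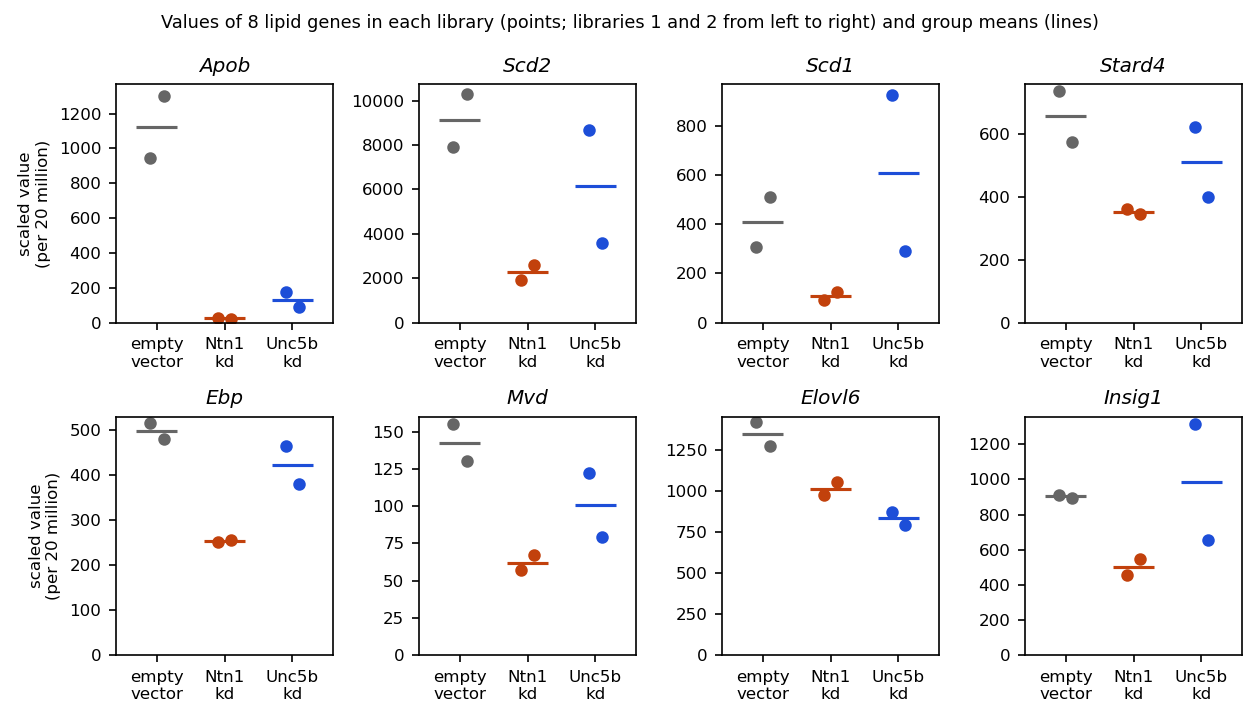
Scaled value (vertical axes start at 0) in each library for the 7 genes that passed a test in any comparison and for Insig1; points are libraries 1 and 2 from left to right, lines are group means and kd stands for knockdown. The Ntn1 knockdown points are lowest for all but Elovl6, and the Unc5b points of Scd2, Scd1 and Insig1 are far apart.

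Among the 18 enzymes of the mevalonate and sterol steps, Mvd and Ebp fell in the Ntn1 knockdown. These are 11.1%, against 15.1% of all genes tested that were called in either direction and 7.06% called lower. Mvd, which decarboxylates mevalonate diphosphate (chromosome 8, 122433601 to 122443422 on the minus strand), had values of 155 and 130 in the controls, 57 and 67 in the Ntn1 knockdown and 122 and 79 in the Unc5b knockdown. Ebp, a sterol isomerase gene (chromosome X, 8185329 to 8193512 on the minus strand), had values of 517 and 480, 252 and 257, and 466 and 380. Both genes had all 4 knockdown libraries below both controls, and their Ntn1 libraries were the lowest. Mvd was 2.3-fold lower with Ntn1 lowered (log2 fold change -1.14 ± 0.28, limma adjusted p = 0.0308) and Ebp 1.96-fold lower (-0.96 ± 0.17, adjusted p = 0.0078). Without Ntn1 knockdown library 1 or 2 the calls of both were lost (adjusted p = 0.19 and 0.127 for Mvd, 0.0847 and 0.0788 for Ebp), and without empty vector library 1 that of Mvd was (0.0848).

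The other 16 enzymes of these steps did not pass in the Ntn1 knockdown, with log2 fold changes from -0.89 ± 0.32 for Fdps, the farnesyl diphosphate synthase gene, to 0.06 ± 0.17 for Hsd17b7, which encodes a 3-ketosteroid reductase. Cyp51 and Fdps passed when Unc5b library 1 or 2 was left out of the model or when only the groups compared were fitted (adjusted p = 0.0197 to 0.0209 and 0.032 to 0.0336), and Acat2, a thiolase gene, passed without empty vector library 2 (0.0397). Of all 18, 15 had both Ntn1 knockdown libraries below both controls (83.3%, against 30.2% of all genes tested). None had both above (against 28.0% of all genes tested), and Idi1, Sc5d and Hsd17b7 overlapped. The mevalonate kinase gene Mvk and the phosphomevalonate kinase gene Pmvk, which act just before Mvd, had log2 fold changes of -0.35 ± 0.25 and -0.75 ± 0.31. Sqle, the squalene epoxidase gene, and Lss, the lanosterol synthase gene, had -0.31 ± 0.16 and -0.43 ± 0.24. Msmo1 and Nsdhl, which remove methyl groups from sterols, had -0.25 ± 0.20 and -0.52 ± 0.22. All 6 of these genes had Ntn1 knockdown libraries below both controls and none passed the test. The median log2 fold change of the 18 was -0.40, and 17 of 18 fitted values were below 0. Cyp51, the lanosterol demethylase gene, was at 1834 and 1825, 1177 and 1245, and 2107 and 1056 in the empty vector, Ntn1 and Unc5b libraries. Dhcr7, which encodes the reductase that ends the Kandutsch-Russell route of cholesterol synthesis, came closest to the threshold (-0.47 ± 0.14, limma adjusted p = 0.0583). Hmgcs1, the HMG-CoA synthase gene at the head of the pathway, differed little (-0.15 ± 0.18, interval -0.56 to 0.26). Summed over the 18 genes, scaled values were 15558 and 14562 in the controls, 11309 and 12074 in the Ntn1 knockdown and 17515 and 11947 in the Unc5b knockdown. The values of Hmgcs1, Fdft1, Fdps, Idi1, Acat2 and Tm7sf2 are uncertain, because between 9.87% and 39.1% of their 50-base stretches also occur in other genes.

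The sterol carrier gene and all 4 regulators lay below the controls in both Ntn1 knockdown libraries, as did 30.2% of all genes tested. Of these lipid genes only the carrier gene passed the test. Stard4, which encodes a soluble sterol carrier and is a known SREBP-2 target, was at 739 and 576 in the controls, 361 and 346 in the Ntn1 knockdown and 622 and 401 in the Unc5b knockdown. It fell 1.86-fold in the Ntn1 knockdown (log2 fold change -0.88 ± 0.23, limma adjusted p = 0.0356), where its libraries lay below all the others. That call was lost without empty vector library 1 (adjusted p = 0.0964) or Ntn1 knockdown library 1 (0.18) or 2 (0.204). Insig1, itself a sterol-responsive gene, was at 914 and 892, 457 and 547, and 1314 and 655. Its Ntn1 knockdown libraries lay below all the others, but the difference did not pass (-0.85 ± 0.28, interval -1.49 to -0.20, adjusted p = 0.0824). It passed when Unc5b knockdown library 1 (adjusted p = 0.0146) or 2 (0.0139) was left out of the model and when only the groups compared were fitted (0.0151). Insig2 was at 1069 and 1390, 892 and 844, and 975 and 750, below the controls in all 4 knockdown libraries. Srebf1 was at 2677 and 2511, 1897 and 2107, and 2400 and 1642, again with all 4 below. For Srebf2 the values were 5169 and 5083, 3902 and 4067, and 5679 and 3759, so that the Ntn1 libraries lay below the controls and the Unc5b libraries on either side. None of Insig2, Srebf1 and Srebf2 passed in the Ntn1 knockdown (log2 fold changes -0.49 ± 0.18, -0.37 ± 0.18 and -0.36 ± 0.18), although Insig2 passed in both knockdowns without empty vector library 1 (adjusted p = 0.0356 and 0.0351). The messages do not show how much SREBP protein was cleaved.

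Of the 5 genes of fatty acid synthesis, Acly and Acaca had both Ntn1 knockdown libraries above both controls, Elovl6 and Acss2 had both below, and Fasn overlapped. Over all genes tested, 28.0% had both above and 30.2% had both below. Acly was at 4756 and 3473 in the controls, 6132 and 5437 in the Ntn1 knockdown and 4952 and 4623 in the Unc5b knockdown. Acaca, the acetyl-CoA carboxylase gene, was at 2109 and 1269, 2421 and 2309, and 2548 and 2488, and Fasn at 8867 and 6215, 9052 and 8378, and 9851 and 8623. In these genes empty vector library 2 was the lowest of the 6, and the control libraries were far apart. None passed, with log2 fold changes in the Ntn1 knockdown of 0.51 ± 0.16 for Acly (limma adjusted p = 0.0635), 0.53 ± 0.21 for Acaca (0.129) and 0.23 ± 0.17 for Fasn (0.398). Without empty vector library 1 all 3 passed as higher in both knockdowns, with log2 fold changes of 0.73, 0.90 and 0.49 in the Ntn1 and 0.46, 0.99 and 0.57 in the Unc5b knockdown, and without library 2 none did. Acaca shares 30.4% of its 50-base stretches with other genes, so its value is uncertain. Acss2 was lower in all 4 knockdown libraries (192.5 ± 0.7 in the empty vector, 143 ± 2.8 and 148 ± 19.8, mean ± SD, n = 2) and did not pass in either. It shares 6.13% of its 50-base stretches with other genes.

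Elovl6, which encodes the elongase of long saturated fatty acids, was the only gene of the 33 other than Apob called lower in the Unc5b knockdown in the main fit. It was at 1423 and 1274 in the controls, 977 and 1055 in the Ntn1 knockdown and 876 and 792 in the Unc5b knockdown (chromosome 3, 129532355 to 129638495). The 3 groups did not overlap, with the Unc5b knockdown lowest, whereas in the other 6 genes that passed in any comparison the Ntn1 knockdown was lowest. It was 1.62-fold lower in the Unc5b knockdown (log2 fold change -0.69 ± 0.13, interval -0.99 to -0.39, limma adjusted p = 0.0129) and did not pass in the Ntn1 knockdown (-0.41 ± 0.13, adjusted p = 0.0762). The direct difference between the knockdowns did not pass either (0.28 ± 0.13, adjusted p = 0.248). Without Unc5b knockdown library 2 the call was lost (adjusted p = 0.0961).

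The comparison of the Unc5b knockdown with the empty vector, which shares its control libraries with the one above, called 2 of the 33 genes. These are 6.06%, against 12.0% of all genes tested that were called and 6.07% that were called lower, so the share is at or under the background. By limma at an adjusted p under 0.05, 0 rose, against 5.90% of all genes tested. At an unadjusted p under 0.05 it was 1 higher and 3 lower, again without a share of all genes to set beside them. Both knockdown libraries lay below both controls for 7 genes (21.2%, against 23.2% of all genes tested) and above both for 1, Acaca (against 28.7% of all genes tested), and the groups overlapped for 25. None of the 18 mevalonate and sterol genes passed by limma. At an unadjusted p under 0.05 the count was also 0, likewise without a share of all genes. The median log2 fold change was -0.15 over the 33 genes and 0.04 over all genes tested. The 95% confidence intervals were wide for the desaturase genes, from -1.50 to 0.12 for Scd2 and from -0.72 to 1.49 for Scd1.

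**Figure D4:**
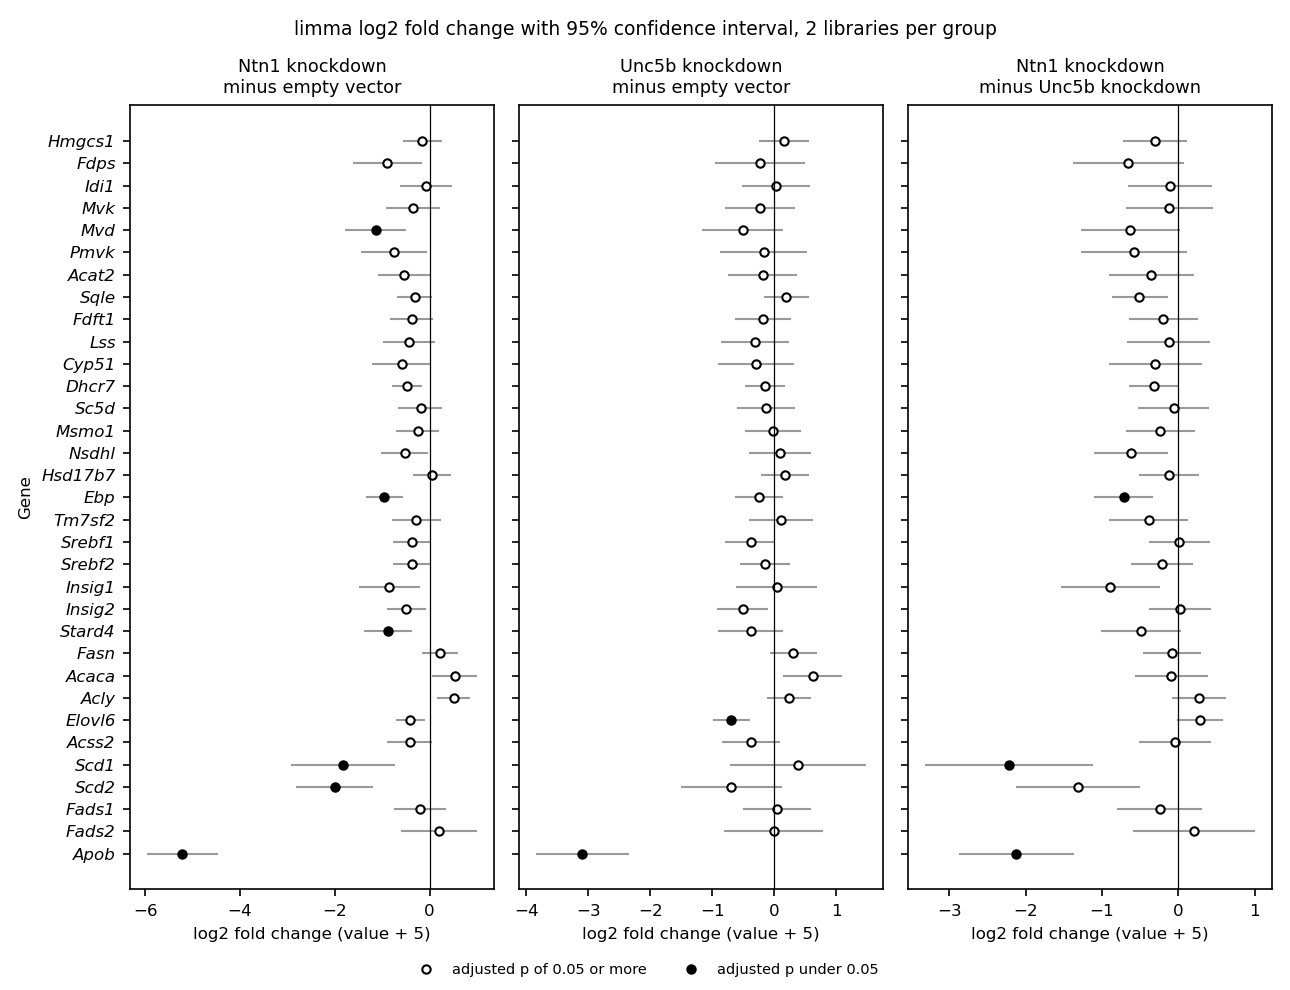
Log2 fold change on log2(value + 5) with its 95% confidence interval (horizontal axes, each with its own scale) for the 33 genes (vertical axis), from the limma model of all 6 libraries, in the 3 comparisons. Filled points passed at adjusted p under 0.05, which holds for 6, 2 and 3 genes from left to right, and most open points of the left panel lie below 0.

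The 2 Unc5b knockdown libraries differed from each other in nearly every lipid gene. Library 1 was higher than library 2 for 32 of the 33 genes (97%), all but Hsd17b7, with a median log2 difference of 0.55. Over all genes tested library 1 was higher for 51.9%, with a median difference of 0.02 and a 10th to 90th percentile range of -0.39 to 0.52. In the empty vector group library 1 was higher for 21 of 33 genes (63.6%, median 0.04), against 47.5% of all genes tested. In the Ntn1 knockdown it was higher for 13 (39.4%, median -0.06), against 46.5%. The difference was greatest for Scd1 (1.65), Scd2 (1.27), Fads2 (1.20), Fdps (1.04), Insig1 (1.00) and Cyp51 (0.99), and it was least for Acaca (0.03) and Hsd17b7 (-0.01). For 13 genes Unc5b library 1 lay above both controls and library 2 below both, among them Hmgcs1, Fdps, Cyp51, Insig1, Srebf2 and Scd1. How many of all genes tested lay this way was not counted, so the 13 have no background here.

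Which Unc5b library is kept decides what the Unc5b comparison shows. Over the 18 mevalonate and sterol genes the median difference from the empty vector mean was 0.16 in library 1 and -0.39 in library 2, beside -0.45 and -0.32 in the Ntn1 knockdown libraries. The fitted log2 fold change of Cyp51 was -0.79 without library 1 and 0.20 without library 2. Those of Scd2 and Srebf1 were -1.32 and -0.66 without library 1, beside -0.69 and -0.38 in the main fit. The fold changes of Apob and Elovl6 stayed below 0 in both fits. The fitted Scd1 difference was -0.44 without library 1 and 1.21 without library 2, so its sign depended on the library kept. The targeted gene itself was at 419 and 352 and Ntn1 at 1319 and 771 in libraries 1 and 2, and estimated depth was 9.36 and 8.63 M reads. Values of library 2 were thus lower for Ntn1 as for the lipid genes. The part of the Ntn1 level or of depth in this split was not tested.

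**Figure D5:**
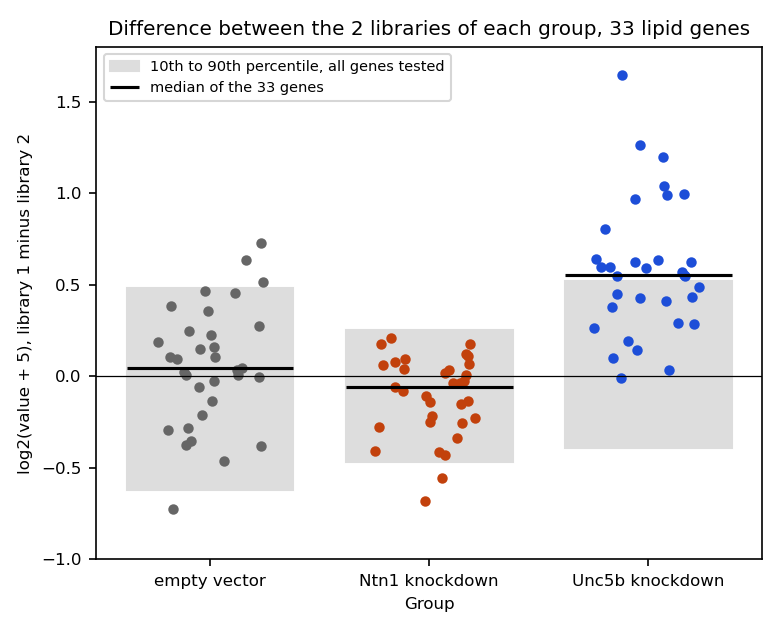
Each point is the log2(value + 5) of 1 lipid gene in library 1 minus library 2 (vertical axis) within each group (horizontal axis), black lines are medians over the 33 genes, and grey boxes span the 10th to 90th percentile of all genes tested. In the Unc5b knockdown the median is 0.55 and all points but 1 lie above 0, whereas the other groups lie on both sides of 0.

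Set directly against the Unc5b knockdown, the Ntn1 knockdown was lower in 3 of the 33 genes, Apob, Ebp and Scd1. These are 9.09%, against 7.10% of all genes tested that were called and 2.95% that were called lower, while 0 were called higher by limma, against 4.15% of all genes tested. Without Apob, 2 of 32 were called, both lower (6.25%). At an unadjusted limma p under 0.05 it was 8 lower and 0 higher of the 33, without a share of all genes at that threshold. Apob was 5.3-fold lower (log2 fold change -2.12 ± 0.33, adjusted p = 0.00946), Scd1 5.58-fold lower (-2.22 ± 0.48, adjusted p = 0.0315) and Ebp 1.66-fold lower (-0.71 ± 0.17, adjusted p = 0.0433). Scd2 did not pass (-1.31 ± 0.35, adjusted p = 0.0637), but it did when only these groups were fitted (0.0369) or without empty vector library 1 (0.0391) or 2 (0.0366). Both Ntn1 knockdown libraries lay below both Unc5b libraries for 15 genes (45.5%, against 31.3% of all genes tested) and above both for 2, Acly and Elovl6 (against 24.4% of all genes tested), and 16 overlapped. All 3 calls were lost without Ntn1 knockdown library 1 or 2 (adjusted p = 0.108 to 0.272) or with no filter (0.0664 to 0.143), and Ebp also lost its call with median-of-ratios scaling (0.0508). Without Unc5b library 2 the fitted log2 differences of Cyp51, Insig1 and Scd2 were -0.80, -1.39 and -1.94, beside -0.30, -0.89 and -1.31 in the main fit. Without Unc5b library 1 that of Cyp51 was 0.20. The median log2 difference was -0.24 over the 33 genes and -0.05 over all genes tested.

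Other genes of lipid metabolism were followed in lists of 123 genes, of which 97 could be tested. In the Ntn1 knockdown 8 rose and 12 fell (20.6% called), and in the Unc5b knockdown 6 rose and 9 fell (15.5%), against 15.1% and 12.0% of all genes tested. Abcg1, a sterol efflux transporter and a known target of the liver X receptors, was at 1407 and 1612 in the controls, 300 and 275 in the Ntn1 knockdown and 953 and 584 in the Unc5b knockdown. It fell in both (log2 fold change -2.37 ± 0.22, limma adjusted p = 0.000494, and -1.01 ± 0.22, adjusted p = 0.0227), and the groups did not overlap. Npc2, whose protein moves cholesterol out of lysosomes, was at 1234 and 1550, 2918 and 2994, and 2430 and 2029 and rose in both (2.12-fold higher, limma adjusted p = 0.00229, and 1.6-fold higher, adjusted p = 0.0209). Npc1, its partner in the lysosomal membrane, rose in the Ntn1 knockdown (1.63-fold higher, limma adjusted p = 0.0247). The Ntn1 calls of Abcg1 and Npc2 held without each library in turn, but that of Npc1 was lost without empty vector library 1 or either Ntn1 library (adjusted p up to 0.197). In the Unc5b knockdown the calls of Abcg1 and Npc2 were each lost without 4 of the 6 libraries (adjusted p up to 0.11 and 0.117). Of 9 regulators of SREBP processing, only Mbtps1 passed in the Ntn1 knockdown, the protease gene that makes the first cleavage of SREBPs, at 5442 and 5799 in the controls and 3797 and 3835 in the knockdown (limma adjusted p = 0.017, and 0.151 and 0.142 without either Ntn1 library).

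Lipoprotein uptake, glycerolipid synthesis and fatty acid oxidation genes moved in both directions. Of 9 uptake genes, Mylip, whose ubiquitin ligase degrades lipoprotein receptors, rose in both knockdowns, from 14 and 21 to 74 and 92 with Ntn1 lowered and 43 and 58 with Unc5b lowered. Sort1, a sorting receptor gene, fell in the Unc5b knockdown, from 43 and 75 to 0 and 2 (limma adjusted p = 0.00358). Its means were 59.0 in the empty vector, 18.0 in the Ntn1 and 1.0 in the Unc5b knockdown, so it reached the filter only through the controls. Both Unc5b values are also under 3 reads, so the Sort1 test, and its call in the fits below, carry little weight. Of 17 glycerolipid genes, Dgat2, which makes triglyceride, rose in both knockdowns, from 116 and 53 to 290 and 263 and to 336 and 512. In the same list Agpat4, Agpat5 and Lpin2 fell in the Unc5b knockdown. Of 17 oxidation genes, Eci2 rose in both knockdowns and Ppard in the Ntn1 knockdown (2.35-fold higher), whereas Acadm, Eci1 and Hadh fell in the Ntn1 knockdown by 2.25-fold, 2.19-fold and 1.48-fold. Of 21 further fatty acid genes, the mitochondrial citrate carrier gene Slc25a1 (2.26-fold lower) and the reductase gene Tecr (1.39-fold lower) fell in the Ntn1 knockdown, and Fads3 and Acsl6 rose. Hacd1, a 3-hydroxyacyl-CoA dehydratase gene of fatty acid elongation, fell in the Unc5b knockdown, from 238 and 233 to 79 and 111 (limma adjusted p = 0.00846). By limma, adjusted p in the Ntn1 knockdown was 0.00627 for Mylip, 0.0128 for Dgat2, 0.0009 for Ppard, 0.0194 for Acadm and 0.00843 for Slc25a1. Of 18 list genes taken by the naming rule for this knockdown, 4 kept their call without each library in turn (Apobec1, Abcg1, Npc2 and Ppard), and of 13 taken for the Unc5b knockdown 2 did (Sort1 and Hacd1). The other 14 Ntn1 calls were each lost without Ntn1 knockdown library 1 and without library 2.

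The epithelial identity of the sorted cells was visible in every library. All 8 epithelial markers, Krt8 the most abundant, reached a mean of 20, with summed levels of 53240 to 55780 in the controls, 70648 to 75079 in the Ntn1 knockdown and 55286 to 60359 in the Unc5b knockdown. Within that list Krt5, Krt18 and Itga6 rose in the Ntn1 knockdown (limma adjusted p = 0.000327, 0.0234 and 0.00739), whereas Trp63 fell, from 94 and 96 to 33 and 31 (adjusted p = 0.0178). The calls of Krt18, Itga6 and Trp63 were lost without either Ntn1 knockdown library (adjusted p up to 0.186, 0.104 and 0.12), and that of Krt18 also without empty vector library 1. Summed fibroblast markers were at 136 to 137, 211 to 311 and 139 to 237, and endothelial markers at 96 to 108, 178 to 223 and 88 to 100. The endothelial difference was carried by Cdh5, which was listed at 0 in both controls and stood at 86 and 113 in the Ntn1 knockdown, while Pecam1 was at 104 and 94 and at 90 and 107. Immune markers summed to 1434 to 1679, 644 to 770 and 1258 to 1844, and Adgre1 and Lyz2 were listed at 0. Csf1r alone carried the lower sum, falling from 1213 and 1511 to 347 and 443 in the Ntn1 knockdown (limma adjusted p = 0.00193). The other immune markers that could be tested were higher there without passing, Cd68 at 107 and 122 against 81 and 25, and Cd14 at 190 and 202 against 134 and 137. The part of these marker levels in the lipid gene values was not tested.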

How the data were processed

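The deposited table holds values that the authors scaled to about 20 M per library and rounded to whole numbers, which were treated as a score and not as read counts. Per the submitters' processing notes, STAR, Picard and HTSeq were used with GRCm38 (mm10). Counting options, strand use and the way of scaling were not given in the sources used here, so reads of genes that overlap on opposite strands cannot be told apart. Positions and exon lengths came from GENCODE M21, in which 49326 of 49671 identifiers were found. Depth was estimated from the step between low values, because low values fell on whole multiples of 1 step within a tolerance of 0.5.

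Values were analysed as log2(value + 5) for 15330 genes with a mean of at least 20 over the 6 libraries, and fold values are ratios of group means. A limma 3.58.1 model in R 4.3.3 with 3 groups and a variance trend (3 residual and 5.33 prior degrees of freedom) gave 2-sided tests, adjusted by the Benjamini-Hochberg method over all genes tested and called at an adjusted p under 0.05. The script was tested on simulated data. With 2 libraries a group, exact permutation p-values start at 0.333, so none was used. The table turned out to hold scaled values, so the count test considered for raw counts was not run.

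Members and lists were chosen with earlier results of these data known. Each member is named; values in every library are given for members called in any comparison, for the regulators and for Apob, and of each list up to 5 called genes with the smallest adjusted p. Some list genes are not reported here. Alternatives changed the pseudocount (1 or 20), the filter (none or a mean of 100), the scaling, the variance trend, the groups fitted and the replicate block, and left out each library in turn.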

Additional observations from a re-analysis of the deposited data

How the results depend on the processing

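Counts of called genes are given for the Ntn1 knockdown, then the Unc5b knockdown, each against the controls, then for the 2 knockdowns against each other. The main counts were 6, 2 and 3 of the 33 genes and 2314, 1835 and 1088 of all genes tested. With pseudocounts of 1 or 20, a filter of 100, median-of-ratios scaling or quantile normalization, each count stayed within 1.5 times the main one. With no filter 2 members were called in the first comparison and 0 in the third (8 lower and 1 higher at an unadjusted p under 0.05, by limma), and 1289, 791 and 302 of all genes. Without the variance trend 1 member was called in the third, and 1462, 1115 and 454 of all genes. Fitting only the groups compared gave 950 of all genes in the second and 1856 in the third. Leaving out 1 library at a time gave 1 to 9, 1 to 6 and 0 to 5 members, and 507 to 2769, 680 to 2428 and 34 to 1842 of all genes. No call of a member or named gene turned its direction under the 15 alternatives. The labels do not say that replicate numbers pair the libraries, and deviations of same-numbered libraries correlated at 0.16 (empty vector and Ntn1), -0.45 (empty vector and Unc5b) and -0.169 (Ntn1 and Unc5b). With the replicate block 4, 2 and 1 members were called, Mvd (adjusted p = 0.0615) and Scd1 (0.0793) losing their calls in the first comparison and Ebp (0.0976) and Scd1 (0.0776) in the third, and 1465, 1102 and 459 of all genes. With the Unc5b numbers crossed, a block chosen after seeing the data, 16, 5 and 8 members and 4151, 3585 and 2617 of all genes were called. Fits without the filter tested more genes, and fits with fewer libraries had fewer residual degrees of freedom. The cause of the changes in these counts was not tested. A group left with 1 library is assumed to vary like the others. Apob in the Ntn1 knockdown, at 10.9 and 7.8 estimated reads, is limited by depth.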
